A study of Mus musculus with 6 samples.

Results

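Microglia are the resident macrophages of the brain, and border macrophages are their relatives along blood vessels, in the meninges and in the choroid plexus. A set of 33 genes expressed by these cells was taken by name from the RNA count table, out of 22584 genes in all. The symbol of 32 members was found in the table, and Fcrls was found by its Ensembl identifier (ENSMUSG00000015852), which stands in the table under the symbol Fcrl2. The rule that picks the rows uses names alone, although the list was drawn up with earlier results of these data known. All 33 passed the filter on low counts. The members were ordered by role into 10 homeostatic surface and secreted genes, 4 genes for a growth factor receptor and transcription factors, 3 complement C1q chains, 7 pan-myeloid signalling and integrin genes, 5 lysosomal and antigen presentation genes, and 4 border macrophage genes.

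The tissue was brain from wild-type mice, and RNA was prepared in 2 ways. In the control group, 3 libraries came from RNA extracted with TRIzol, a phenol reagent followed by alcohol precipitation. In the other group, 3 libraries came from RNA of the AllPrep kit, a column kit that gives DNA, RNA and protein from 1 sample. Strain, age, sex and brain region are not given in the labels. The labels also do not say whether the replicates came from separate animals, so the p-values speak only to variation among these 6 libraries, and that variation may be technical. Column totals ran from 36395330 to 50937858 counts, and levels are given as counts per 1000000 of the column total (CPM). Values are listed throughout in the order of replicates 1, 2 and 3 of a method.

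Microglia depend on the receptor CSF1R and its ligands CSF1 and IL34, and on the transcription factors PU.1 (Spi1), IRF8 and SALL1, which keep their identity. In the undisturbed brain they carry receptors that read neuronal and purine signals, such as CX3CR1 and P2RY12, and they are the main source of the C1q chains that start the classical complement pathway. Border macrophages share the myeloid genes and add scavenger receptors such as CD163 and the mannose receptor (Mrc1). Because the libraries are from bulk tissue, fewer cells of a type and less RNA per cell cannot be told apart.

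Promoter sequences describe the members outside the counts, and the motif searched was not common to all of them. Each is the 250 bases before the annotated transcription start, from RefSeq on build GRCm38.p6, written 5′ to 3′ on the gene's own strand. The motif searched was GAGGAA, a core read by PU.1 and other ETS factors, with TTCCTC as its form on the other strand, and capitals mark each occurrence. It was present in 14 of the 28 member promoters found for 24 member genes (50%) and in 7639 of 32851 promoters in all (23.3%). The longer form GAGGAAGT, which contains the first motif, was present in 2 of 28 member promoters (7.14%), those of C1qc and Pf4, against 2.44% of all promoters. Laptm5 is shown because it is the member whose RNA differed between the methods, Cx3cr1 for a homeostatic gene without the motif, C1qb and C1qc for a pair of chains of 1 protein, and Mrc1 for a border macrophage gene with 3 occurrences. A match is a description of the letters and says nothing about binding in these libraries.
Laptm5, chr4:130913066-130913315, plus strand, TTCCTC starting 38 bases before the start: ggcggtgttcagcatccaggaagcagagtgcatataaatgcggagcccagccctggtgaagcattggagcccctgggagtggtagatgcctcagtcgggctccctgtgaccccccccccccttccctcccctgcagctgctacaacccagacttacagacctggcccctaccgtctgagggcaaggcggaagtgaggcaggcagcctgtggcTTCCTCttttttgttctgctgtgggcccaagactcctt
Cx3cr1, chr9:120068297-120068546, minus strand, no occurrence: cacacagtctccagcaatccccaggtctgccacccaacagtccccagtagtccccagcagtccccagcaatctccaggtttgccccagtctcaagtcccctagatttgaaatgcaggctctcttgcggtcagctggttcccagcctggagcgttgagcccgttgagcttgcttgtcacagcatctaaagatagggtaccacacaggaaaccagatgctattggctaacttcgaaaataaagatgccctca
C1qb, chr4:136886201-136886450, minus strand, GAGGAA starting 30 bases before the start: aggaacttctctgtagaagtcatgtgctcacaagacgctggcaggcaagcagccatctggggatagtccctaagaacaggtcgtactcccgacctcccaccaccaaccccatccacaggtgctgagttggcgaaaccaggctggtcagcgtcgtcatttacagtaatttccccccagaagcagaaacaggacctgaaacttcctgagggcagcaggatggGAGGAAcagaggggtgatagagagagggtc
C1qc, chr4:136892915-136893164, minus strand, TTCCTC starting 193 bases before the start: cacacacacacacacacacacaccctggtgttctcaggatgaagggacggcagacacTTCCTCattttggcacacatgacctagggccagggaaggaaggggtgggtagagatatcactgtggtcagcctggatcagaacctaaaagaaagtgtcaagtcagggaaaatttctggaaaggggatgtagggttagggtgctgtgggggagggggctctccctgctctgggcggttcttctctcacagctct
Mrc1, chr2:14229164-14229413, plus strand, TTCCTC starting 180, 167 and 35 bases before the start: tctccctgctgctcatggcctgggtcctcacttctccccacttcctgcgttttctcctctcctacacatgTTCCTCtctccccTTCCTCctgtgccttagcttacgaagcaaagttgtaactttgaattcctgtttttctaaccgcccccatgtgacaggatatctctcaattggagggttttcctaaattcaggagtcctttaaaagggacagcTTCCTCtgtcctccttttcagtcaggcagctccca

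In the libraries as a whole, 16325 genes were tested with edgeR's quasi-likelihood test, and at a Benjamini-Hochberg adjusted p below 0.05 AllPrep was higher for 412 and lower for 209. With library size alone as the scaling the numbers were 343 higher and 305 lower, and with trends on transcript length and GC content removed they were 131 and 208. Among the cell type marker lists, the largest relative difference lay in choroid plexus epithelium. Its 12 marker genes summed to 20.3, 29.2 and 22.7 CPM in TRIzol and 762, 634 and 1285 CPM in AllPrep. Whether the tissue content of the samples differed was not tested. Markers of oligodendrocytes summed to between 6162 and 7230 CPM in TRIzol and between 3272 and 5755 CPM in AllPrep, markers of astrocytes to between 4157 and 4792 and between 4878 and 5203 CPM, and markers of neurons to between 8572 and 9520 and between 7772 and 8604 CPM. The part of these differences in the values of the microglia genes was not tested. TRIzol replicate 1 stood apart in genes of the brain's borders, with the lowest level of the 6 libraries for 8 of 10 meningeal fibroblast markers, and the border macrophage and MHC class II results are given with and without it. This library was singled out after the values were seen.

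Few differences between the preparations were called among the microglia and macrophage genes, which does not show that the rest were equal. The 1 member that passed the test was Laptm5, which rose in AllPrep, and none fell. That is 3.03% of the members against a background of 3.8% of all tested genes called, 2.52% higher and 1.28% lower, so the share called was near the background. The median log2 fold change, AllPrep over TRIzol, was 0.10 over the members and -0.01 over all tested genes. The sign was positive for 24 members and negative for 9, while 48.5% of all tested genes were positive. With library size alone the signs were 22 and 11, and with length and GC trends removed 27 and 6. Without TRIzol replicate 1 the signs were 28 and 5, the median was 0.11, and Laptm5 was again the 1 member called (adjusted p = 0.049). Leaving out any other single library gave 22 to 24 positive and 9 to 11 negative signs, with a median of 0.08 to 0.11. Among those fits, Laptm5 was called only without TRIzol replicate 3 (adjusted p = 0.049), and no other member was called.

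At looser cut-offs the members named were all higher in AllPrep, and that direction was not tested over the set. At an unadjusted p below 0.05, 7 members were higher (Cx3cr1, Csf1r, Sall1, Laptm5, Ptprc, Cd74 and Cd163) and none lower, which is 21.2% of the members against 25.8% of all tested genes, 13.4% higher and 12.4% lower. All 3 AllPrep libraries lay above all 3 TRIzol libraries in CPM for 5 members (Cx3cr1, Selplg, Csf1r, Laptm5 and Cd163). That is 15.2% of the members, near the 13.4% of all tested genes. The reverse, all AllPrep libraries below all TRIzol libraries, was seen for 0 of 33 members and for 20.6% of all tested genes. The 95% intervals of the log2 fold change, from limma, covered 0 for 27 of the 33 members and lay within 0.5 on either side of 0 for 23. Among the 21 members with at least 200 counts in every library, a set chosen after the values were seen, 20 had intervals within that range.

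**Figure D1:**
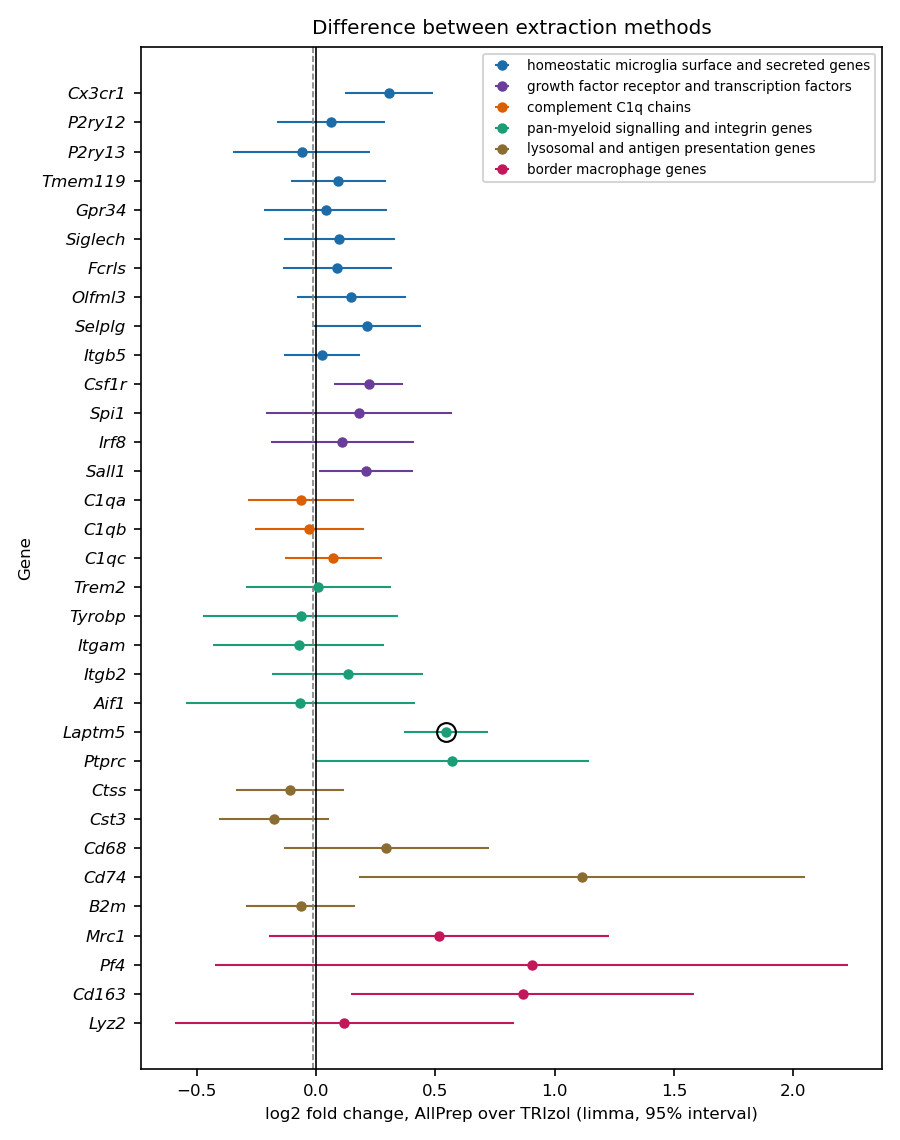
Log2 fold change of AllPrep over TRIzol (horizontal axis, no unit) for each of the 33 members (vertical axis), with points for limma estimates and bars for 95% intervals, coloured by role; the solid line is 0, the dashed line the median of all tested genes, and the circle marks the 1 member that passed edgeR's test. Laptm5 lies clear of 0, and the low-count genes Cd74, Mrc1, Pf4, Cd163 and Lyz2 have the widest bars.

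The spread between libraries of 1 method was small for most members. The coefficient of variation had a median of 8.88% in TRIzol and 7.06% in AllPrep over the 33 members. It ran from 0.374% for Tmem119 to 72.9% for Pf4 in TRIzol, and from 0.513% for Csf1r to 34.4% for Cd74 in AllPrep. Tmem119 encodes a membrane protein used as a marker that separates microglia from other macrophages. It stood at 16.7, 16.6 and 16.7 CPM in TRIzol and 16.6, 18.1 and 17.5 CPM in AllPrep. The lowest AllPrep library was level with TRIzol and the other two were slightly above it (log2 fold change 0.10, adjusted p = 0.52).

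**Figure D2:**
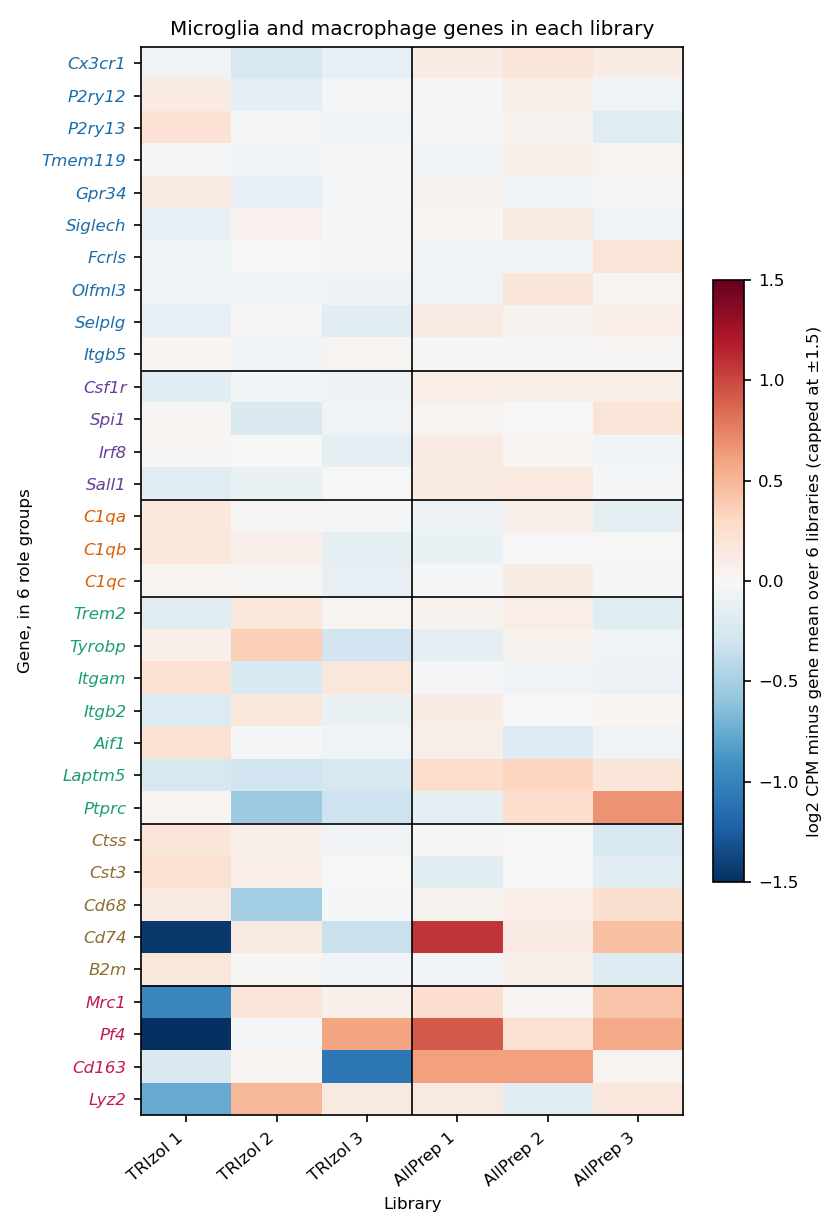
Each of the 33 members (vertical axis, in 6 role groups separated by lines) in each of the 6 libraries (horizontal axis), coloured by log2 CPM minus the gene's mean over the 6 libraries and capped at 1.5 on either side. Most cells are pale, Laptm5 is blue in TRIzol and red in AllPrep, and the border macrophage genes and Cd74 are dark blue in single TRIzol libraries.

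Among the homeostatic surface and secreted genes, 0 of 10 passed the test, 9 had a positive log2 fold change, and the median was 0.10. Cx3cr1, the receptor for the neuronal chemokine fractalkine, stood at 43.9, 38.5 and 41.6 CPM in TRIzol and 49.1, 51.3 and 49.0 CPM in AllPrep. All AllPrep libraries lay above all TRIzol libraries, by 0.30 on the log2 scale (SE 0.08), and the gene did not pass in edgeR (adjusted p = 0.067). DESeq2 called it (adjusted p = 0.024), and with length and GC trends removed the value was 0.20 (adjusted p = 0.25). Selplg, which encodes the selectin ligand PSGL-1, stood at 10.7, 11.8 and 10.3 CPM in TRIzol and 12.7, 12.01 and 12.5 CPM in AllPrep. These groups did not overlap either, with only a narrow gap between the highest TRIzol and the lowest AllPrep library (log2 fold change 0.21, SE 0.09, adjusted p = 0.20).

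The most abundant gene of this group by CPM was Itgb5, an integrin chain that other brain cells also express. Its values were 47.3, 44.7 and 48.0 CPM in TRIzol and 46.1, 46.0 and 47.0 CPM in AllPrep, with every AllPrep library inside the TRIzol range (log2 fold change 0.03, adjusted p = 0.84). P2ry12, the ADP receptor that guides microglial processes, stood at 30.9, 25.7 and 27.9 CPM in TRIzol and 28.7, 30.2 and 27.0 CPM in AllPrep. Here too the AllPrep libraries lay within the TRIzol range (log2 fold change 0.06, adjusted p = 0.74). P2ry13, a related purine receptor, was the 1 gene of the group with a negative value (-0.06), which became positive (0.03) when TRIzol replicate 1 was left out. The orphan receptor Gpr34, the lectin Siglech, the Fc receptor-like gene Fcrls and the secreted protein gene Olfml3 had log2 fold changes of 0.04, 0.10, 0.10 and 0.15, and in each of them the groups overlapped.

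The growth factor receptor and transcription factor genes had positive values for 4 of 4, none past the test, with a median of 0.20 that was 0.09 with length and GC trends removed. Csf1r stood at 81.6, 88.7 and 86.4 CPM in TRIzol and 97.9, 97.0 and 97.1 CPM in AllPrep. The 3 AllPrep values lay within 1 CPM of each other and above every TRIzol value, with a log2 fold change of 0.22 (SE 0.06, adjusted p = 0.088). The value fell to 0.10 with length and GC trends removed (adjusted p = 0.36), and DESeq2 called it (adjusted p = 0.047). Sall1, a zinc finger factor needed for microglial identity, stood at 22.0, 22.9 and 24.4 CPM in TRIzol and 26.7, 27.2 and 24.3 CPM in AllPrep. AllPrep replicate 3 lay inside the TRIzol range and the other two above it (log2 fold change 0.21, adjusted p = 0.17, and 0.07 with length and GC trends removed). Spi1 and Irf8 were low, between 2.02 and 2.69 CPM and between 3.98 and 4.73 CPM over the 6 libraries, and their groups overlapped (log2 fold changes 0.18 and 0.11).

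The C1q chains form 1 protein from 3 gene products, and their genes sit side by side on chromosome 4. C1qa stood at 35.6, 32.1 and 31.2 CPM in TRIzol and 30.0, 33.6 and 28.9 CPM in AllPrep. C1qb stood at 37.1, 35.0 and 30.4 CPM in TRIzol and 31.1, 33.4 and 33.3 CPM in AllPrep, and C1qc at 29.2, 28.9 and 26.1 CPM in TRIzol and 27.9, 30.7 and 28.0 CPM in AllPrep. The groups overlapped for all 3 chains, and none passed the test (adjusted p = 0.72, 0.86 and 0.63). The log2 fold changes were -0.06 for C1qa (95% interval -0.28 to 0.16), -0.03 for C1qb (-0.26 to 0.20) and 0.07 for C1qc (-0.13 to 0.28). The sign of C1qa and of C1qb became positive with length and GC trends removed (0.02 and 0.05). It also did so without TRIzol replicate 1 (0.00 and 0.04), and that of C1qb alone without AllPrep replicate 1 (0.02).

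Within a library, the chains kept close proportions. The ratio of C1qb to C1qa, per kilobase of transcript, was 0.990 ± 0.0555 in TRIzol and 1.02 ± 0.0794 in AllPrep (SD, n = 3 each). The ratio of C1qc to C1qa per kilobase was 0.711, 0.777 and 0.724 in TRIzol and 0.802, 0.790 and 0.837 in AllPrep, so that all AllPrep values lay above all TRIzol values. This ratio has no p-value beside it. The chains' summed level relative to that of the homeostatic surface genes was 0.468, 0.469 and 0.416 in TRIzol and 0.404, 0.427 and 0.404 in AllPrep, with AllPrep replicate 2 inside the TRIzol range.

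**Figure D3:**
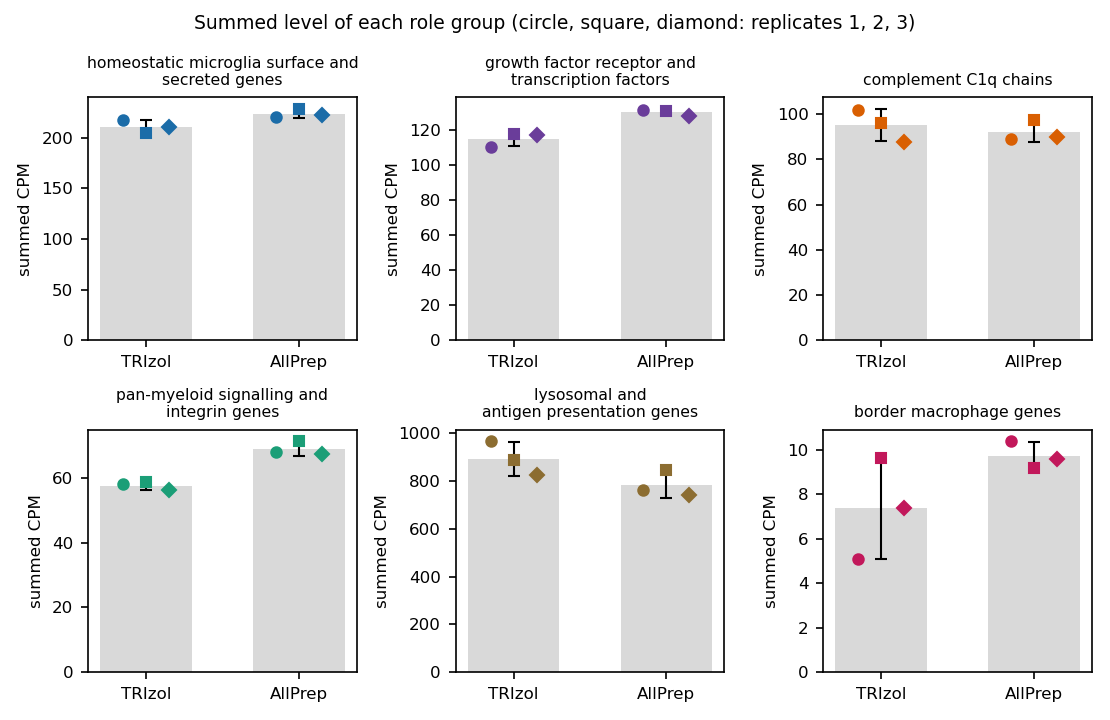
Summed CPM (vertical axes, starting at 0) of the genes of each role group in TRIzol and AllPrep; bars are means, error bars SD over 3 libraries, and circle, square and diamond are replicates 1, 2 and 3. The receptor and transcription factor, surface, and pan-myeloid groups do not overlap between the methods, the C1q chains do, and TRIzol replicate 1 is the lowest library for the border macrophage genes.

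The summed levels followed the single genes. The surface genes summed to 211 ± 6.34 CPM in TRIzol and 224 ± 4.13 CPM in AllPrep (SD, n = 3 each), a ratio of 1.06, and the receptor and transcription factor genes to 115 ± 4.15 and 130 ± 1.84 CPM, a ratio of 1.13. The libraries of the methods did not overlap in either sum. Taken singly, only 2 of the 10 surface genes (Cx3cr1 and Selplg, 20%) and 1 of the 4 others (Csf1r, 25%) were without overlap. Over all tested genes the share was 13.4% with AllPrep higher. The rest of both groups overlapped, so neither sum shows a rise of the whole group. The pan-myeloid genes summed to 57.6 ± 1.24 and 68.9 ± 2.07 CPM, again without overlap. Without Laptm5 the latter sums were 32.8, 34.4 and 31.2 CPM in TRIzol and 32.5, 34.2 and 33.9 CPM in AllPrep, with overlap. All members together summed to 1377 ± 78.0 CPM in TRIzol and 1307 ± 64.6 CPM in AllPrep, with overlap and a ratio of 0.949. This total rests on Cst3, and without it the ratio was 1.05.

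Laptm5 was the member set apart by the test. It encodes a lysosomal membrane protein of blood-derived cells and microglia that takes part in the turnover of immune receptors. Its level was 25.1, 24.2 and 25.02 CPM in TRIzol and 35.5, 37.0 and 33.6 CPM in AllPrep. The TRIzol libraries lay within 1 CPM of each other, and the lowest AllPrep library stood far above them. The means were 24.8 ± 0.463 and 35.3 ± 1.72 CPM (SD, n = 3 each), a 1.43-fold rise, and the log2 fold change was 0.55 (SE 0.08, 95% interval 0.37 to 0.72, adjusted p = 0.025). With any 1 library left out, the value lay between 0.51 and 0.58. The call was lost without TRIzol replicate 2 (adjusted p = 0.065), AllPrep replicate 1 (0.085), AllPrep replicate 2 (0.079) or AllPrep replicate 3 (0.057).

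Of the other pan-myeloid genes, 0 of 6 passed, and the median over all 7 was 0.01, or 0.08 with length and GC trends removed. Ptprc, the tyrosine phosphatase CD45 found on all white blood cells, stood at 4.48, 2.99 and 3.51 CPM in TRIzol and 3.98, 5.24 and 6.95 CPM in AllPrep. AllPrep replicate 1 lay inside the TRIzol range and the other two above it (log2 fold change 0.60, SE 0.25, adjusted p = 0.18). Markers of lymphocytes were close to absent, since the 8 genes in the table summed to between 0.495 and 0.600 CPM in TRIzol and between 0.415 and 0.614 CPM in AllPrep. None of them exceeded 15 counts in a library, and 6 of 8, Cd3e among them, had 0 counts in at least 1. Markers of blood, mostly haemoglobin, summed to 17.5, 9.45 and 18.1 CPM in TRIzol and 13.5, 12.3 and 9.33 CPM in AllPrep, with overlap.

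The receptor Trem2 and its signalling partner Tyrobp (DAP12) did not pass the test. Trem2 stood at 7.91, 9.86 and 9.11 CPM in TRIzol and 9.19, 9.47 and 7.77 CPM in AllPrep (log2 fold change 0.01, adjusted p = 0.97). Tyrobp stood at 7.80, 9.55 and 6.09 CPM in TRIzol and 6.71, 7.68 and 7.19 CPM in AllPrep (log2 fold change -0.08, adjusted p = 0.80). The groups overlapped for both, and the ratio of Tyrobp to Trem2 per kilobase was 1.59 ± 0.325 in TRIzol and 1.498 ± 0.178 in AllPrep (SD, n = 3 each). The integrin chains Itgam (CD11b) and Itgb2 (CD18), which pair to form complement receptor 3, had log2 fold changes of -0.09 and 0.13, and the actin-binding marker Aif1 (IBA1) had -0.07. Aif1 rested on only 41 to 60 counts per library.

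Of the lysosomal and antigen presentation genes, 0 of 5 passed. The median was -0.06, and it turned positive with length and GC trends removed (0.09). It was also just positive without TRIzol replicate 1 (0.004) and without AllPrep replicate 3 (0.004). Cst3, the secreted protease inhibitor cystatin C, was the most abundant member at 817, 748 and 694 CPM in TRIzol and 626, 704 and 622 CPM in AllPrep. AllPrep replicate 2 lay above the lowest TRIzol library, and the log2 fold change was -0.18 (SE 0.10, adjusted p = 0.30). Cst3 is also made by astrocytes and other brain cells, and it took 54.6 ± 1.39% of the members' summed CPM in TRIzol and 49.8 ± 1.13% in AllPrep (SD, n = 3 each), without overlap. Beside it, the summed level of the 9 astrocyte markers was 1.14 times as high in AllPrep as in TRIzol. The markers went both ways, with 5 positive and 4 negative log2 fold changes and a median of 0.03. Only the glutamate transporter Slc1a3 passed (log2 fold change 0.42, adjusted p = 0.037), and that call was lost without any 1 of the 6 libraries (adjusted p = 0.058 to 0.11) and with length and GC trends removed (0.067).

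B2m, the light chain of MHC class I, stood at 71.9, 65.1 and 62.3 CPM in TRIzol and 62.2, 68.1 and 55.99 CPM in AllPrep. Its groups overlapped (log2 fold change -0.06, adjusted p = 0.72, and 0.09 with length and GC trends removed). The lysosomal protease Ctss (cathepsin S) stood at 67.4, 62.8 and 57.5 CPM in TRIzol and 60.0, 59.8 and 50.4 CPM in AllPrep, with AllPrep replicate 3 the lowest (log2 fold change -0.11, adjusted p = 0.52). Cd68, a lysosomal glycoprotein of phagocytes, stood at 7.23, 4.59 and 6.51 CPM in TRIzol and 6.82, 7.06 and 7.75 CPM in AllPrep. TRIzol replicate 2 was low and the other libraries overlapped (log2 fold change 0.27, adjusted p = 0.38).

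Cd74, the invariant chain of MHC class II, had the largest log2 fold change of the members, 1.05 (SE 0.39, 95% interval 0.18 to 2.05, adjusted p = 0.15). Its values were 1.21, 3.61 and 2.60 CPM in TRIzol and 6.91, 3.58 and 4.51 CPM in AllPrep. AllPrep replicate 1 was the highest library, TRIzol replicate 1 the lowest, and AllPrep replicate 2 lay at the level of TRIzol replicate 2. Without TRIzol replicate 1 the value was 0.73 (adjusted p = 0.23), and DESeq2 on all libraries called the gene (adjusted p = 0.045). The classical class II genes H2-Aa, H2-Ab1 and H2-Eb1 were each lowest in TRIzol replicate 1 as well, at 0.714, 0.385 and 1.10 CPM. None of these 3 passed the test (log2 fold changes 0.35, 0.78 and 0.49, adjusted p = 0.71, 0.40 and 0.41). Without TRIzol replicate 1 their values were -0.06, 0.37 and 0.30.

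The border macrophage genes had positive values for 4 of 4 and the highest median of the role groups, 0.60, and 0 of 4 passed. They were among the least abundant members, with 2 to 22 counts per library for Pf4, 49 to 183 for Mrc1, 51 to 161 for Cd163 and 60 to 160 for Lyz2. Cd163, the haemoglobin scavenger receptor, stood at 2.06, 2.44 and 1.13 CPM in TRIzol and 3.66, 3.68 and 2.47 CPM in AllPrep. The methods did not overlap, although AllPrep replicate 3 was barely above TRIzol replicate 2 (log2 fold change 0.84, SE 0.31, 95% interval 0.15 to 1.59, adjusted p = 0.15). Mrc1 stood at 1.35, 3.01 and 2.80 CPM in TRIzol and 3.18, 2.75 and 3.59 CPM in AllPrep (log2 fold change 0.45, adjusted p = 0.38). The chemokine Pf4 (CXCL4) stood at 0.0549, 0.259 and 0.400 CPM in TRIzol and 0.5002, 0.311 and 0.393 CPM in AllPrep (log2 fold change 0.75, adjusted p = 0.45). In both genes TRIzol replicate 1 alone was low and the other libraries overlapped. Lyz2, the myeloid lysozyme, stood at 1.65, 3.92 and 3.05 CPM in TRIzol and 3.05, 2.46 and 3.14 CPM in AllPrep (log2 fold change 0.04, adjusted p = 0.94).

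The border genes' difference was smaller without TRIzol replicate 1. That library was singled out after the values were seen, for low border genes, so its removal had to lower most of these values. TRIzol replicate 1 was the lowest of the 6 libraries for Mrc1, Pf4 and Lyz2, at 0.463, 0.167 and 0.473 times the mean of the other TRIzol libraries, while Cd163 was lowest in TRIzol replicate 3. Without TRIzol replicate 1 the group's median was 0.24, and the log2 fold changes were 0.17 for Mrc1, 0.31 for Pf4, 0.92 for Cd163 and -0.23 for Lyz2. With any other single library left out, the median lay between 0.52 and 0.71. The summed level was 5.11, 9.63 and 7.38 CPM in TRIzol and 10.4, 9.21 and 9.60 CPM in AllPrep. The ratio of the method means was 1.32 with all libraries and 1.14 without TRIzol replicate 1. Relative to the homeostatic surface genes, the border genes made up 0.0235 in TRIzol replicate 1 and between 0.0350 and 0.0471 in the other 5 libraries.

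Other genes of the brain's borders were low in the same library. On a further list of 17 border macrophage genes, TRIzol replicate 1 was the lowest library for 12, and on a list of 10 meningeal fibroblast markers for 8. Of the 17, 3 were at 0 counts in some library. Only 12 of the 17 passed the low-count filter, and the mean deviation given next covers those alone. The mean deviation of TRIzol replicate 1 from the 6-library mean, on the log2 scale of CPM plus 0.1, was -0.80 for the border members, -0.74 for the further border genes, -1.004 for Cd74 with the MHC class II genes (grouped after the values were seen) and -0.96 for the meningeal markers. It was 0.01 for the homeostatic surface genes and 0.12 for the C1q chains. The meningeal markers summed to 82.2, 144 and 130 CPM in TRIzol and 145, 107 and 192 CPM in AllPrep, none of them at 0 in any library. Without TRIzol replicate 1, the ratio of AllPrep to TRIzol went from 1.25 to 1.08 for the meningeal sum and from 1.21 to 1.12 for the sum of the further border genes. The 12 choroid plexus markers did not single out this library, since TRIzol replicates 1 and 3 were each the lowest for 6 of them. The part of meningeal or choroid plexus content in the border macrophage values was not tested.

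**Figure D4:**
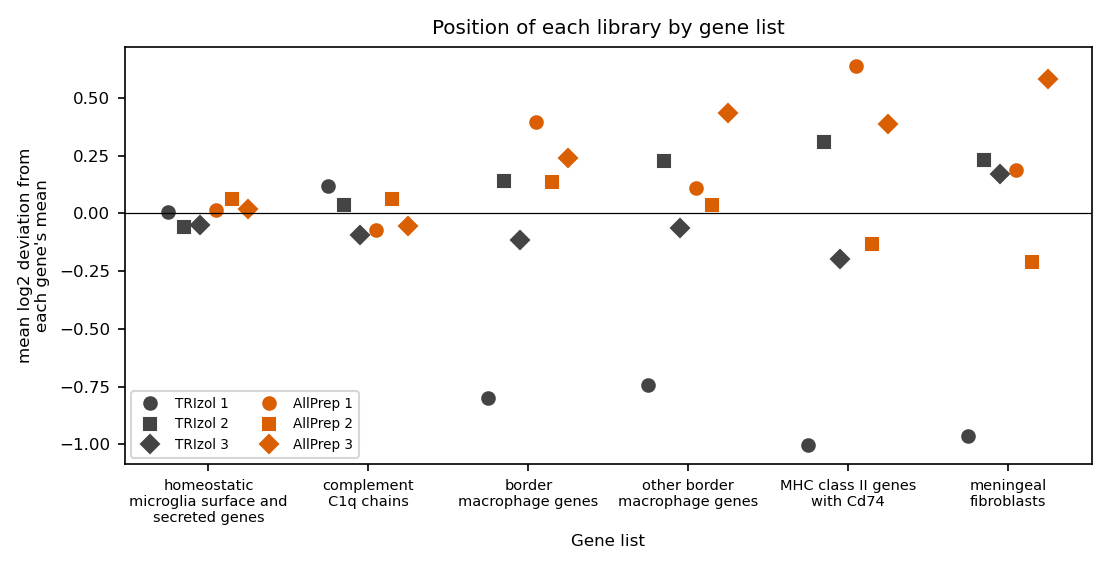
Mean log2 deviation of each library from each gene's 6-library mean (vertical axis, CPM plus 0.1) for 6 gene lists (horizontal axis), with TRIzol in grey and AllPrep in orange. TRIzol replicate 1 lies between -0.74 and -1.004 for the border macrophage, MHC class II and meningeal lists, and near 0 for the homeostatic surface and C1q lists.

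Levels were ordered between genes after division by the length of the longest annotated transcript. This order assumes reads along the whole transcript, which was not tested. In CPM per kilobase, Cst3 was highest, with means of 876 in TRIzol and 757 in AllPrep, followed by B2m with 77.2 and 72.2 and Ctss with 46.2 and 41.9. The C1q chains came next, with 31.4 and 30.0 for C1qb, 31.7 and 29.6 for C1qa, and 23.3 and 24.0 for C1qc. The libraries of C1qa and C1qb overlapped on this scale, so their order is not resolved. Csf1r followed with 18.2 and 20.7 CPM per kilobase, and then Itgb5 with 14.2 and 14.1. Tyrobp, P2ry12, Laptm5 and Cx3cr1 formed a band with 13.1, 12.02, 9.53 and 9.20 CPM per kilobase in TRIzol and 12.04, 12.2, 13.6 and 11.1 in AllPrep. Laptm5 lay below Tyrobp and P2ry12 in the TRIzol means and above both in the AllPrep means. At the low end were Ptprc with 0.721 and 1.06, Cd163 with 0.423 and 0.737, Pf4 with 0.405 and 0.683, and Mrc1 with 0.444 and 0.591 CPM per kilobase.

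**Figure D5:**
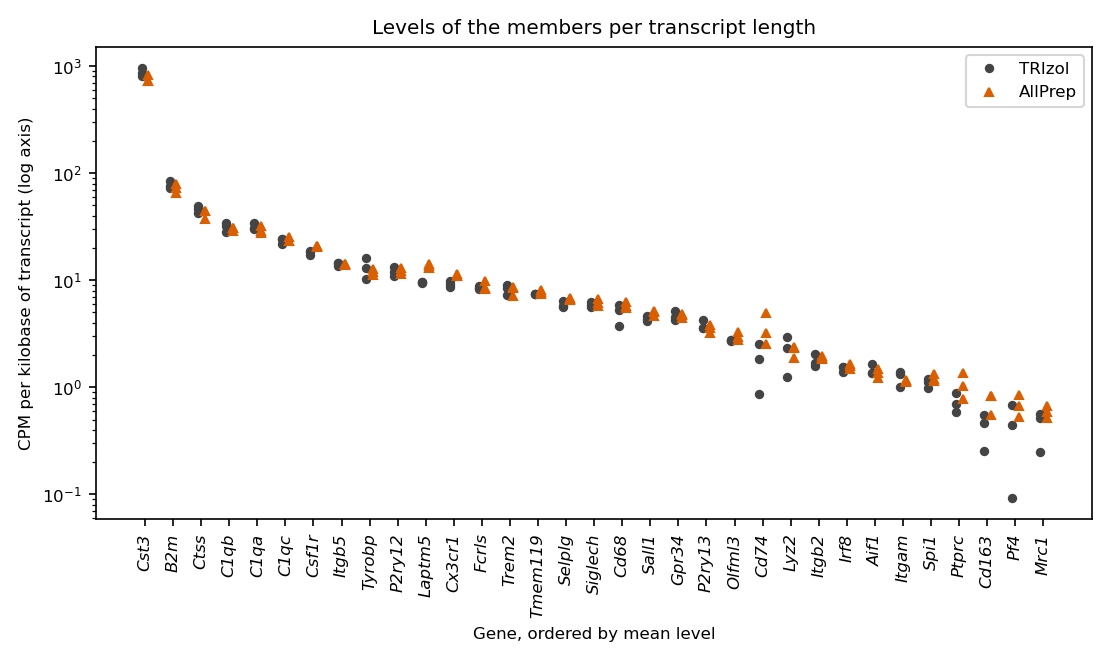
CPM per kilobase of transcript (vertical log axis) for the 33 members ordered by mean level (horizontal axis), 1 point per library, grey circles for TRIzol and orange triangles for AllPrep. Levels span from Cst3 near the top to Mrc1, Pf4 and Cd163 at the bottom, where single TRIzol libraries fall away from the rest.

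Transcript length went with the sign of the members' differences, as it did over all genes. Among the 13 members with a transcript under 1500 bases, a split chosen after the values were seen, 7 had a negative log2 fold change and the median was -0.03. Among the 20 longer ones, 2 were negative and the median was 0.14. Over all tested genes, 71.3% of those under 1500 bases were negative (median -0.17), against 47.9% of the longer ones (median 0.01). The 7 short members with negative values were C1qa, C1qb, Tyrobp, Aif1, Ctss, Cst3 and B2m, and the 6 with positive values were C1qc, Trem2, Cd68, Cd74, Pf4 and Lyz2. The part of transcript length in any single member's value was not tested, apart from the fit with length and GC trends removed.

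Genes that act with the members gave a similar picture. Of 121 genes on 7 lists, 109 were tested, 1 rose and none fell, or 0.917% higher against 2.52% of all tested genes. Their median log2 fold change was 0.13, with 79 positive and 30 negative. At an unadjusted p below 0.05 in edgeR, 18 were higher, or 16.5% against 13.4% of all tested genes, and 4 were lower. DESeq2, which called 1248 genes higher and 753 lower in all, called 8 higher (C3, C4b, Cd36, Dock8, Lgals3, Lpl, Sirpa and Tgfb2) and 2 lower (Cfp and H2-T23). Of 44 other microglia genes, 0 passed and 38 were positive. Their summed level was 417, 422 and 411 CPM in TRIzol and 458, 462 and 441 CPM in AllPrep, without overlap. Mertk, a receptor for the uptake of dying cells, stood at 36.7, 39.9 and 40.4 CPM in TRIzol and 43.1, 44.4 and 45.4 CPM in AllPrep (log2 fold change 0.22, adjusted p = 0.11). All AllPrep libraries lay above all TRIzol libraries for this gene.

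Several ligands of the microglial receptors are made by neurons and other brain cells. A list of 8 genes holds ligands of these receptors, and also Sirpa, the partner of the ligand CD47. On it 0 passed, all 8 were positive, and the median was 0.21. Cx3cl1 (fractalkine), the ligand of CX3CR1, stood at 545, 518 and 497 CPM in TRIzol and 533, 642 and 590 CPM in AllPrep (log2 fold change 0.21, adjusted p = 0.21). Sirpa, the binding partner of CD47 on neurons and myeloid cells, stood at 381, 380 and 348 CPM in TRIzol and 403, 442 and 480 CPM in AllPrep, without overlap (log2 fold change 0.29, adjusted p = 0.11). The ligands of CSF1R differed little, with log2 fold changes of 0.05 for Csf1 and 0.14 for Il34. The ratio of Il34 to Csf1 per kilobase was 3.68 ± 0.448 in TRIzol and 3.90 ± 0.668 in AllPrep (SD, n = 3 each).

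Complement genes beyond C1q gave 0 of 12 tested genes past the test, with 8 positive and 4 negative. Their log2 fold changes ran from -1.09 to 1.27. AllPrep lay above TRIzol without overlap for 2 of them (16.7%, against 13.4% of all tested genes). It lay below for another 2 (16.7%, against 20.6%). C4b, the next component of the classical pathway, stood at 26.4, 32.9 and 29.1 CPM in TRIzol and 35.9, 34.3 and 39.7 CPM in AllPrep, without overlap (log2 fold change 0.35, adjusted p = 0.091). Of the 11 MHC genes 0 passed. The class I heavy chains H2-D1 and H2-K1, which pair with B2m, had log2 fold changes of -0.21 and 0.02.

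Of the other 12 tested border macrophage genes 0 passed. The most abundant by CPM were the transcription factor Maf and the scavenger receptor Stab1 (log2 fold changes 0.17 and 0.27). Maf also stands on the list of other microglia genes. Of the disease-associated microglia genes, which rise in phagocytic microglia near damage, 1 of 15 tested rose, or 6.67% against 2.52% of all tested genes, and none fell. All AllPrep libraries lay below all TRIzol libraries for 3 of the 15 (20.6% of all tested genes), and also in the list's summed level, 1743 ± 67.4 against 1870 ± 68.6 CPM (SD, n = 3 each). The sum is weighted to the most abundant genes. Over the list the median log2 fold change was 0.01, with 8 positive and 7 negative. The gene that rose was Lpl, lipoprotein lipase, at 18.7, 14.98 and 16.2 CPM in TRIzol and 24.8, 26.1 and 31.02 CPM in AllPrep (log2 fold change 0.75, SE 0.13, adjusted p = 0.033). All AllPrep libraries lay above all TRIzol libraries. The call was lost without any 1 library other than TRIzol replicate 1 (adjusted p = 0.063 without TRIzol replicate 3, 0.083 without TRIzol replicate 2, and 0.086, 0.089 and 0.088 without AllPrep replicates 1, 2 and 3).

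The most abundant genes of that list had smaller log2 fold changes than Lpl. Apoe, the lipid carrier that astrocytes also make, had a log2 fold change of -0.003 (adjusted p = 0.98), with overlapping libraries. Ctsb (cathepsin B) stood at 693, 738 and 638 CPM in TRIzol and 634, 614 and 553 CPM in AllPrep, with all AllPrep libraries below all TRIzol libraries (log2 fold change -0.17, adjusted p = 0.28). Genes of the interferon and inflammatory response gave 0 of 8 tested past the test, with 2 positive and 6 negative. Nfkbia, the inhibitor of NF-kappa B, had a log2 fold change of -0.03 and overlapping libraries.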

How the data were processed

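RNA of 3 TRIzol and 3 AllPrep libraries was analysed. Library RNA was amplified by in vitro transcription from a T7 promoter and read in pairs, per the labels' protocols. The deposited values are raw counts per gene, and the submitters' processing notes name FastQC 0.11.9, cutadapt, STAR 2.7.9a, featureCounts, limma 3.60.6 and build GRCm39. Strandedness of the counting is not given in the sources used here, so reads of overlapping genes on opposite strands may be shared. Of 22692 rows, 108 repeated an identifier with identical counts and were dropped, which left 22584 genes. In each library, 64.2% to 70.9% of the counts from 1 to 20 were even, a pattern that arises where both reads of a pair are counted, and an alternative halved them. Between replicates of a method, chi-square per degree of freedom was 14.3 to 47.1, so no library repeated another.

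Groups follow the labels. The main test was edgeR 4.0.16 (R 4.3.3), quasi-likelihood, TMM scaling and filterByExpr, two-sided, with Benjamini-Hochberg adjustment over 16325 genes and 0.05 as threshold. Intervals came from limma 3.58.1 on log2 CPM (prior count 2). DESeq2 1.42.0 and the other alternatives are in the closing section, and the test was checked on simulated data. Transcript lengths were those of the longest protein-coding transcript in GENCODE vM21, found for 99.4% of tested genes, and mgcv 1.9.3 fitted the length and GC trends. That annotation and the promoters are on another build than the counts, so other coordinates are not given. The members and lists were chosen with earlier results of these data known. Named in full are every member called, the 2 members of each role with the smallest p and the 2 with the highest mean CPM, and of other lists the called genes and the 2 with the highest mean CPM. Genes called by DESeq2 or named beside a member's result, such as the class II genes, were added after their values were seen, and marker lists are given as sums. Some genes that this rule names are not reported here.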

Additional observations from a re-analysis of the deposited data

How the results depend on the processing

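Counts of genes moved with the tool and threshold. DESeq2 called 1248 genes higher and 753 lower, against 412 and 209, and 4 members higher (Cx3cr1, Csf1r, Cd74 and Laptm5), with 8 genes of the other lists higher and 2 lower. At an adjusted p below 0.1 the counts were 1171 and 850 genes, 3 members higher, and 5 and 1 listed genes. At 0.01 they were 1 and 0 genes, 0 members and 0 listed genes higher. Without the low-count filter 2 listed genes were higher. Removing length and GC trends left 131 genes higher. Leaving out 1 library gave 2 to 137 genes higher and 0 to 68 lower, 0 to 1 members higher, and 0 to 1 listed genes in each direction. The members' median log2 fold change was 0.06 to 0.11 over all alternatives, and the summed CPM ratio of 0.949 became 1.05 without Cst3.

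The labels do not say whether replicate numbers pair the samples. Deviations of same-numbered libraries correlated at -0.048, 0.0063 and 0.16, and those of differently numbered libraries at -0.17 to 0.20. With 3 libraries per method these values cannot settle the pairing. With the replicate block, 195 genes were higher and 41 lower and 0 members were called (Laptm5, log2 fold change 0.55, adjusted p = 0.056), nor was Lpl (0.059) or Slc1a3 (0.067). With the block and length and GC trends removed together, 30 genes were higher and 15 lower, with 0 members and 0 listed genes higher.

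Across the 16 alternatives Laptm5 stayed between 0.51 and 0.58 on the log2 scale and was called in 10. No member was lower under any of them. Low counts limit the border genes, and Pf4 was untested under the 1 CPM filter and with halved counts.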
